A study of Rattus norvegicus with 6 samples.

Results

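Nuclear receptors are transcription factors switched by small lipophilic ligands such as fatty acids, steroids, retinoids, thyroid hormone and bile acids, and many of them bind DNA as a pair with a retinoid X receptor. Ligand binding exchanges corepressors for coactivators on the receptor, which changes transcription of its target genes. In liver they set fatty acid oxidation, drug metabolism, glucose output and sterol handling. The genes described here are 36 named nuclear receptors and coregulators, taken by symbol and not by their values. On the array, 35 of the 36 had at least 1 probe set annotated with that symbol alone, 64 probe sets in all among the 31042 that are not controls. The same rule finds 14217 genes in the whole series. Nr6a1, an orphan receptor of germ cells, had none and is not analysed here.

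The 6 samples were liver of rats given a fat-rich diet to raise cholesterol. All rats ate this diet for 30 d, and for a further 30 d they ate it while receiving 1 ml of saline by stomach tube each day. In the high-fat group (n = 3), the controls, the saline was plain. In the probiotic group (n = 3) it carried the lactic acid bacterium Lactobacillus casei Zhang. Strain, sex and age are not given in the labels, and no group on an ordinary diet was measured. The samples were chosen at random from their groups, and the labels do not say whether each came from a separate rat. The p-values therefore set group differences against a spread between samples, partly pooled over probe sets, that may be technical.

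Liver identity was checked on hepatocyte markers, and 9 of 10 were on the array, the lowest at percentile 96.5 of all probe sets. Of 6 adipocyte markers 5 were on the array. Adipoq and Lep lay below percentile 40 and the brightest at percentile 75.3, and their summed intensity was 1067 in probiotic sample 2 and 596 to 749 in the other 5 samples. Markers of Kupffer cells, the liver macrophages, had lower values in the probiotic group for 11 of 11 genes, and their summed intensity was 16539 to 19892 in probiotic and 20069 to 25644 in high-fat samples. The gap between 3' and 5' signals of Actb, which widens as RNA breaks down, was 2.08, 3.07 and 2.39 log2 units in probiotic and 1.95, 1.48 and 1.97 in high-fat samples. The Actb values did not overlap between groups. The same gap of Gapdh was 0.667, 1.58 and 1.27 in probiotic and 0.533, 0.496 and 0.754 in high-fat samples. There probiotic sample 1 lay within the high-fat range. Both gaps stand beside every comparison below. High-fat sample 2 was the lowest array for 13 of the 30 receptor and coregulator genes tested (43.3%), and for 26.1% of all probe sets tested. In whole liver, fewer cells of a type and less RNA per cell cannot be told apart.

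The promoters show how the genes at the centre of the comparison are built. RefSeq (rat assembly GRCr8) gave 36 windows for 29 of the 36 genes, each running from 250 bases before to 50 bases after an annotated start. Ppard, Nr3c2, Nr2f2, Nr4a3, Ncoa2, Ncoa3 and Med1 had none in the table used. Rxra and Rxrb are printed because they had the smallest p-values among the genes, and Nr1i3 is printed as a contrast in base composition. Capitals mark the GC box GGGCGG, to which Sp1-type factors are known to bind, on either strand, and the receptor half-site AGGTCA was marked in the same way. The motifs do not overlap. The windows are chr3:31387642-31387941 on the plus strand for Rxra, chr20:4824610-4824909 on the minus strand for Rxrb and chr13:86165170-86165469 on the plus strand for Nr1i3, and each is written 5′ to 3′ along its gene.
Rxra: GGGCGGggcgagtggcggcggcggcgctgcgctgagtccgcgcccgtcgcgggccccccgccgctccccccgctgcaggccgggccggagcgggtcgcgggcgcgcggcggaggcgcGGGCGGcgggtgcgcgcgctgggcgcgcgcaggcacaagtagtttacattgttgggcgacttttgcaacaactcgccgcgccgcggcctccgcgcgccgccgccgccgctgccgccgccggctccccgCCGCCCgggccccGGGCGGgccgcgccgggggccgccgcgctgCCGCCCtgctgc
Rxrb: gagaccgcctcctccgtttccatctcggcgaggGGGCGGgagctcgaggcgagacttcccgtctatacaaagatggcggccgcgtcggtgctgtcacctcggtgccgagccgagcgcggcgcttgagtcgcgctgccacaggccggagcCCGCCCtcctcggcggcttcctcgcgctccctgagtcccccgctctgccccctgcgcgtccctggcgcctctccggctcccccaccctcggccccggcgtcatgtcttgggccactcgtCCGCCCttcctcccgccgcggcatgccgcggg
Nr1i3: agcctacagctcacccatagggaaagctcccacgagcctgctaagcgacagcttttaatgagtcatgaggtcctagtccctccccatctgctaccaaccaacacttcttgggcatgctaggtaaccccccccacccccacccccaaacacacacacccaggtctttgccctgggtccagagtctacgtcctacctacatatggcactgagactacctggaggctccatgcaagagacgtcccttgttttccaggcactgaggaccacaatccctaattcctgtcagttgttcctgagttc
The Rxra window held 62 CpG pairs and 5 GC boxes, and the Rxrb window 41 CpG pairs and 3 GC boxes. The Nr1i3 window held 4 CpG pairs and no GC box, as did that of Nr1i2. Neither of the RXR windows printed, nor that of Nr1i3, held the half-site in these letters. Over all 36 windows the median was 24 CpG pairs, against 7 over all 33469 rat windows. A GC box was present in 22 of them (61.1%, against 33.1% of all windows), the half-site in 3 (8.33% against 16.2%) and the letters TATAAA in 2 (5.56% against 14.2%). These matches describe the sequence, and binding was not measured.

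Signals are given as log2(intensity + 16) after quantile normalization, and a probe set is called bright where its mean over the 6 arrays lay at or above percentile 75 of all probe sets, a log2 signal of 8.86. Brightness depends on the probes as well as on the transcript, so it marks genes with a clear signal and does not rank their abundance. The brightest probe set stands for its gene. By this measure 14 of 35 genes were bright, 10 of 28 receptors and 4 of 7 coregulators. A further 16 lay between percentiles 40 and 75. The brightest probe set of Esr1, Vdr, Nr2f1, Nr2c2 and Ncoa2 lay below percentile 40, and these 5 genes were not tested. Their percentiles were 22.6 for the estrogen receptor Esr1, 38.7 for the vitamin D receptor Vdr, 22.3 for the orphan receptor Nr2f1, 12.4 for the orphan receptor Nr2c2 and 28.8 for the coactivator Ncoa2.

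**Figure D1:**
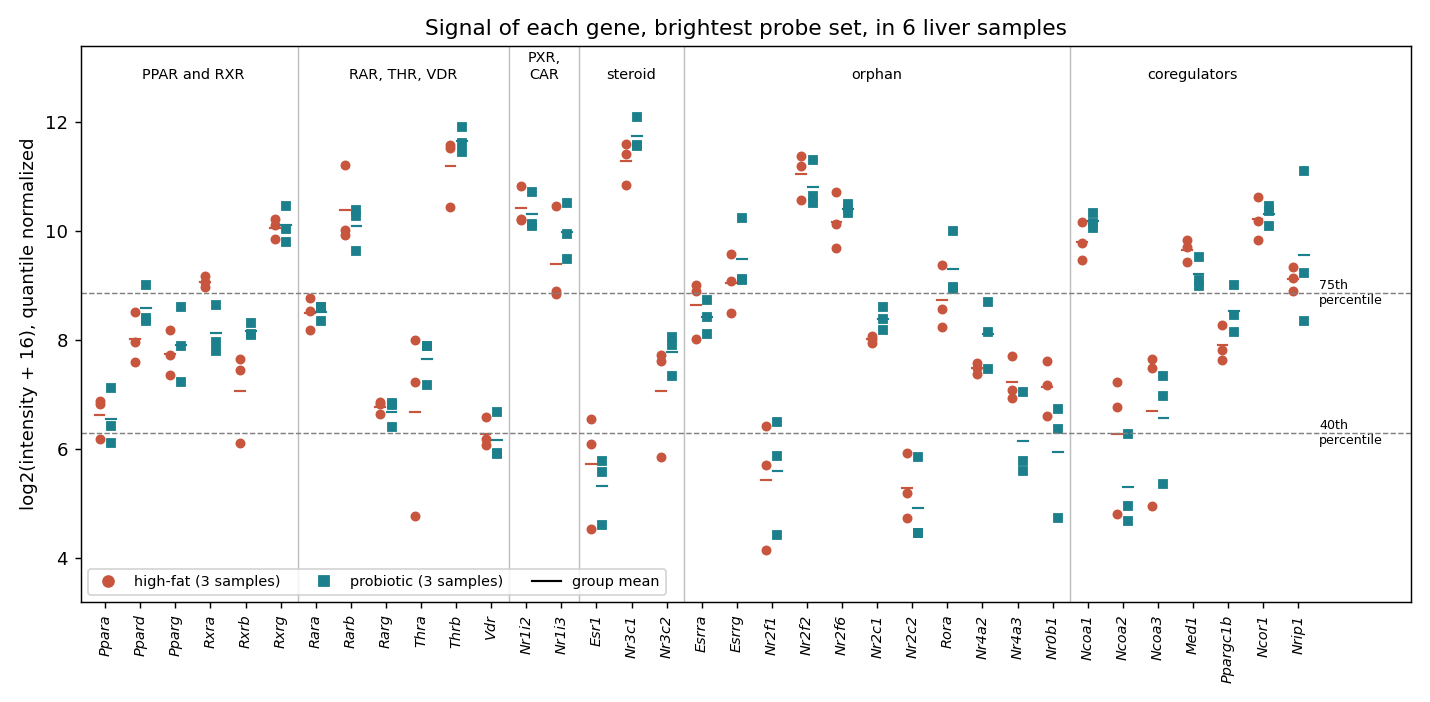
Signal of the brightest probe set of each of the 35 genes in every sample, as log2(intensity + 16) after quantile normalization, with genes grouped by role. Circles are the 3 high-fat samples, squares the 3 probiotic samples, short lines the group means and dashed lines percentiles 40 and 75 of all probe sets. Nr3c1, Thrb and Nr2f2 are the brightest, and the groups of Rxra and Rxrb are apart.

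Bright receptors covered glucocorticoid, thyroid hormone, xenobiotic, retinoid and orphan classes. The brightest probe set was that of Nr3c1, the glucocorticoid receptor (percentile 94.5), followed by Thrb, the main thyroid hormone receptor of liver (94.1), and the orphan receptor Nr2f2 (92.0). Nr1i2, the pregnane X receptor that senses drugs and bile acids, stood at percentile 88.8, and Nr1i3, the constitutive androstane receptor with overlapping targets, at 83.4. The orphan receptor Nr2f6 (88.4), the retinoic acid receptor Rarb (88.0) and Rxrg (86.8) were bright too, as were Esrrg (79.4) and Rora (76.7). Other probe sets of these receptors lay lower. They stood at 47.9 for Rxrg, 32.7 for Rora, 58.5 for Nr3c1 and 77.4 for Esrrg. Those of Nr2f6 stood at 65.5, 47.2, 28.4 and 3.34, those of Nr2f2 at 72.2 and 42.9, and those of Thrb at 86.6, 64.4 and 54.5. Among coregulators the corepressor Ncor1 (88.1), the coactivator Ncoa1 (86.1), the Mediator subunit Med1 (81.1) and Nrip1 (80.2) were bright. Ppara, known as the dominant PPAR of hepatocytes, was measured by 1 probe set at percentile 45.6. Rxra, known as the main RXR of hepatocytes, stood at percentile 72.2, below the brightest probe set of Rxrg and above its other one. Rxrg is best known from muscle and brain.

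No nuclear receptor or coregulator passed the test between probiotic and high-fat liver. Of their 49 tested probe sets, 0 had an adjusted p under 0.05 with limma, against 0.0215% (4 of 18625) of all probe sets tested, and the smallest adjusted p was 0.726. Before adjustment 3 probe sets (6.12%) had a p under 0.05, against 6.85% of all probe sets tested. They belonged to Rxra, Rxrb and Nr3c1. Groups did not overlap for 5 probe sets (10.2%), against 12.7% of all. Both shares lay near the background. Of the 30 genes tested, 19 had higher and 11 lower values in the probiotic group, each by its brightest probe set, with a median log2 difference of 0.197. Over all 49 probe sets, 29 higher and 20 lower, the median was 0.0696, against 0.00416 over all probe sets tested. Leaving out high-fat sample 2 gave a median over genes of 0.0877, and leaving out high-fat sample 1 gave 0.351.

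**Figure D2:**
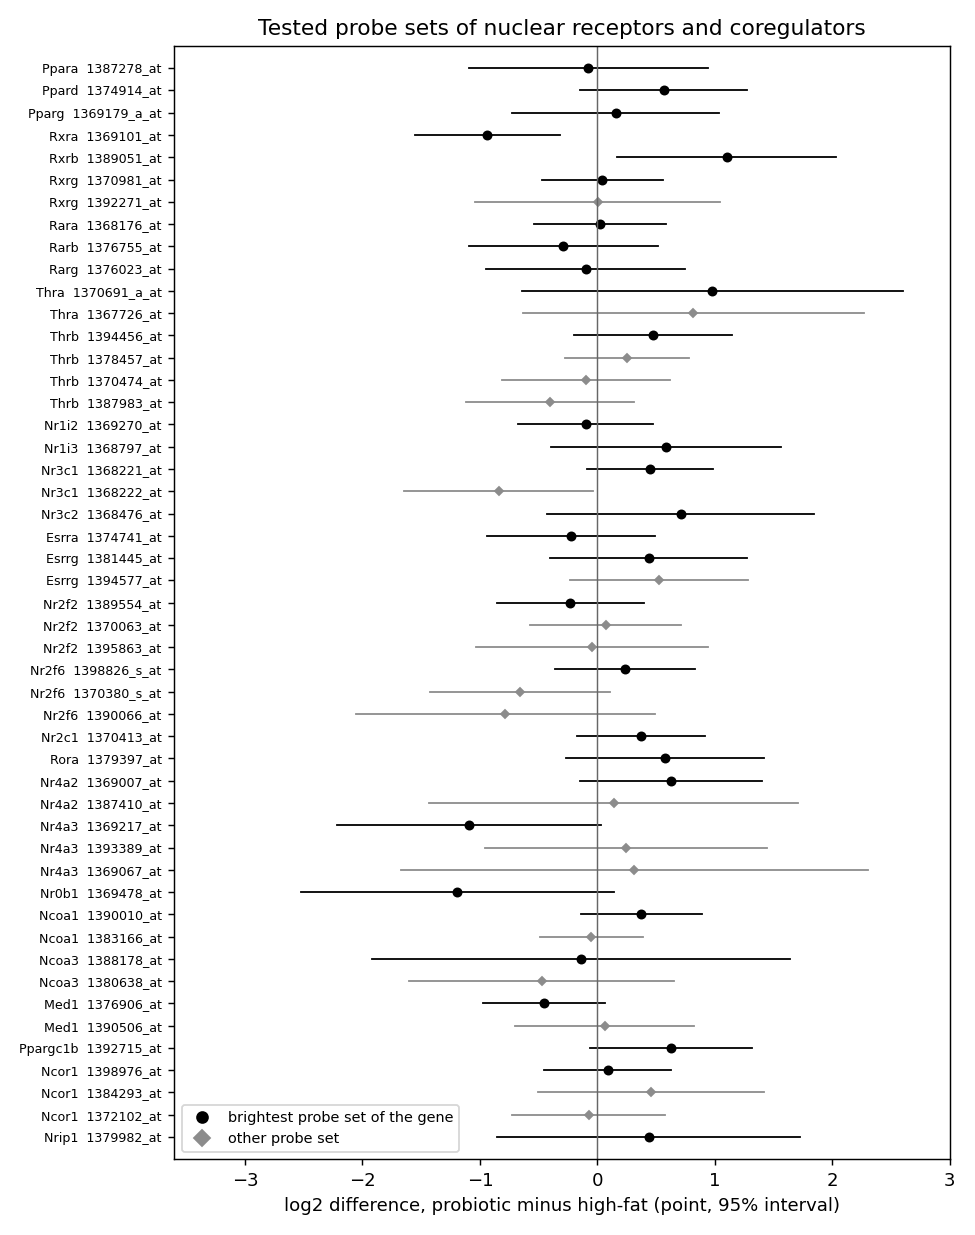
Log2 difference between probiotic and high-fat samples for the 49 tested probe sets, with the 95% interval from limma; circles are the brightest probe set of a gene and diamonds its other probe sets. The intervals of Rxra, Rxrb and the second Nr3c1 probe set lie off 0, and none of the 49 passed after adjustment.

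The retinoid X receptors are the shared partners of PPARs and of retinoic acid, thyroid hormone and xenobiotic receptors. Rxra and Rxrb had the smallest p-values of the 30 genes, in opposite directions, and Rxrg was not among the genes of small p. Rxra had log2 signals of 8.64, 7.80 and 7.97 in probiotic samples 1 to 3 and of 9.06, 9.17 and 8.98 in high-fat samples 1 to 3. Every probiotic sample lay below every high-fat sample, and the high-fat values were close together. The means were 8.14 ± 0.445 and 9.07 ± 0.0954 (SD, n = 3 each), a difference of -0.94 (SE 0.273), or 1.91-fold lower. With limma the unadjusted p was 0.00712 and the adjusted p 0.726. Rxrb had 8.10, 8.31 and 8.12 in probiotic and 7.66, 6.11 and 7.45 in high-fat samples. Here the probiotic values were tight and all above the high-fat values, of which sample 2 was far below the others. The difference was 1.10 (SE 0.414), or 2.15-fold higher (limma, unadjusted p = 0.0251, adjusted p = 0.726). It was 0.641 without high-fat sample 2. In a fit that included the Actb gap the differences were -0.47 for Rxra (SE 0.345) and 0.478 for Rxrb (SE 0.56). The unadjusted limma p-values were 0.21 and 0.418. The gap did not overlap between groups, so this fit separates group and gap poorly.

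Rxrg differed least of the retinoid X receptors. Its values were 10.47, 9.80 and 10.05 in probiotic and 10.22, 10.12 and 9.85 in high-fat samples, so the groups overlapped throughout. The difference was 0.0422, with a 95% interval of -0.474 to 0.558, and a second probe set gave 0.00306. Rxra and Rxrb had 1 probe set each, so their differences have no check from another probe set.

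**Figure D3:**
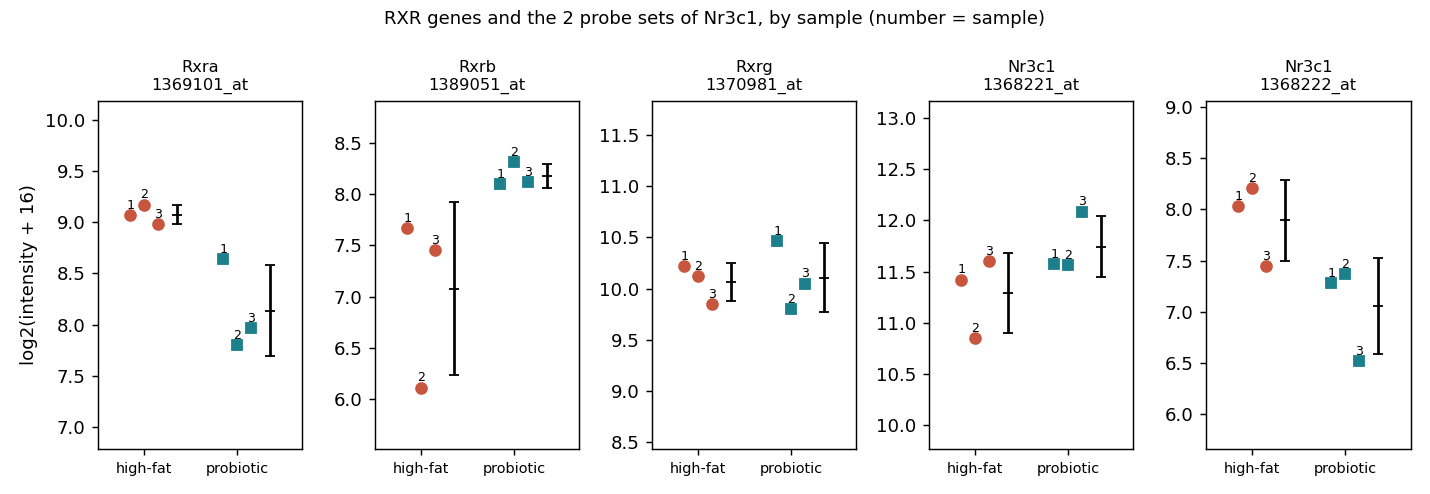
Log2 signal by sample for Rxra, Rxrb, Rxrg and both probe sets of Nr3c1; circles are high-fat and squares probiotic samples, digits give the sample number, and bars are the mean ± SD of 3 samples. All panels span the same number of log2 units. Rxra and the second Nr3c1 probe set are lower and Rxrb higher in all 3 probiotic samples, and high-fat sample 2 is the low point of Rxrb.

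The peroxisome proliferator-activated receptors, which sense fatty acids, showed no difference past the test. Ppara, which drives fatty acid oxidation, had 7.13, 6.42 and 6.12 in probiotic and 6.19, 6.83 and 6.88 in high-fat samples, both groups crossing the same range. Its difference was -0.0764 with a 95% interval of -1.10 to 0.943, and the sign turned when single samples were left out. Ppard, the widely expressed form, had a difference of 0.566 (SE 0.316), or 0.354 with probiotic sample 2 left out and 0.358 with high-fat sample 2 left out. Pparg, best known from adipocytes, had 0.157 (SE 0.392). The coactivator Ppargc1b, a partner of PPARs and estrogen-related receptors in mitochondrial and lipid gene control, had 8.15, 9.004 and 8.46 against 7.81, 8.28 and 7.63. Only probiotic sample 1 lay within the high-fat range, and the difference was 0.628 (SE 0.306) with an adjusted p of 0.732 in limma, or 0.394 without probiotic sample 2.

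The list of 18 genes known as targets of PPARalpha had 15 on the array, all tested. Of these, 13 had higher and 2 lower values in the probiotic group, with a median difference of 0.428. The median over all probe sets tested was 0.00416, and the share of them with higher values was not computed. Before adjustment 3 of the 15 had a limma p under 0.05, all with higher values, against 6.85% of all probe sets tested. Pex11a, a peroxisome division factor, had 0.695. Ehhadh, an enzyme of peroxisomal beta-oxidation, had 0.84 and the lipid droplet protein Plin2 had 0.67. Vnn1, a pantetheinase, had 0.428. The 2 lower genes were Fgf21 (-0.418) and Cpt2 (-0.39). Differences were small for Cpt1a (0.137), Slc25a20 (0.0626), Acadm (0.0467), Hsd17b4 (0.0346) and Fabp1 (0.0298). None passed after adjustment. Leaving out probiotic sample 2 gave a median of 0.0754, and leaving out high-fat sample 1 gave 0.157.

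The retinoic acid receptors had similar values in both groups. Rarb, itself a gene switched on by retinoic acid, had 10.39, 10.28 and 9.63 in probiotic and 11.21, 10.02 and 9.93 in high-fat samples. High-fat sample 1 alone stood above the probiotic range. The difference was -0.29 (SE 0.357), and it ran from -0.516 to 0.123 with single samples left out, the latter when high-fat sample 1 was dropped. Rara had a difference of 0.0204 (95% interval -0.542 to 0.583) and Rarg one of -0.0986 (-0.945 to 0.747). The list of 13 targets of retinoic acid receptors included Rarb itself. Of the 13, 8 were tested, 3 with higher and 5 with lower values and a median of -0.0694. Stra6, the retinol uptake receptor, was the only one of them at an unadjusted p under 0.05, with 7.46, 7.12 and 7.16 in probiotic and 5.99, 6.57 and 5.96 in high-fat samples. All 3 of its probiotic values were the higher ones, and its difference was 1.07 (SE 0.394) with an adjusted p of 0.726 in limma. Its high-fat mean of 6.17 lay below the percentile 40 cut of 6.30, so it passed the filter through its probiotic values. Over all probe sets tested, 6.85% had an unadjusted limma p under 0.05.

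Enzymes and carriers that make, move or break down retinoids also went both ways. Of 19 listed, 12 were tested, with 7 higher and 5 lower and a median of 0.0882. Rbp4, Cyp26a1, Dhrs3 and Lrat were tested in this list and in the target list above, so the lists are not independent. Rdh16, a retinol dehydrogenase, had 10.64, 10.23 and 9.99 in probiotic and 10.55, 11.78 and 11.22 in high-fat samples, a difference of -0.90 (SE 0.310). Aldh1a1, a retinaldehyde dehydrogenase, had 13.16, 13.90 and 13.97 against 12.72, 13.31 and 13.27, a difference of 0.575 (SE 0.245). In each of these genes 1 probiotic sample lay within the high-fat range, and the adjusted limma p was 0.726 for both.

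Thyroid hormone receptors had higher mean values in the probiotic group on their brightest probe sets, without passing the test. Thrb had 11.62, 11.46 and 11.91 in probiotic and 11.58, 10.45 and 11.53 in high-fat samples, where sample 2 alone was low. Its difference was 0.475 (SE 0.298), and 0.105 without high-fat sample 2. The other 3 tested Thrb probe sets gave 0.25, -0.0941 and -0.403. In the last of these the groups did not overlap, with 7.06, 6.97 and 6.91 against 7.66, 7.28 and 7.21. Thra had a difference of 0.98 (SE 0.722) on values of 7.18, 7.90 and 7.89 against 7.23, 4.78 and 8.01, again with high-fat sample 2 far below the rest, and it was 0.036 without that sample and 1.63 when high-fat sample 3 was left out. Of 10 listed targets of these receptors, 9 were tested, 5 with higher and 4 with lower values. Their median was 0.0164 and 0 reached an unadjusted limma p under 0.05, against 6.85% of all probe sets tested. Gpd2, a mitochondrial glycerophosphate dehydrogenase, had 0.636 (SE 0.315). Thrsp, a thyroid hormone-responsive gene of lipid synthesis, had -0.653 (SE 0.438), and the deiodinase gene Dio1 had 0.309 (SE 0.350).

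The xenobiotic receptors were bright in both groups. Nr1i2 had 10.72, 10.14 and 10.10 in probiotic and 10.23, 10.83 and 10.20 in high-fat samples, 1 high sample in each group. The difference was -0.101 with a 95% interval of -0.674 to 0.473, and its sign turned without high-fat sample 2. Nr1i3 had 10.51, 9.49 and 9.95 in probiotic and 10.46, 8.90 and 8.85 in high-fat samples. High-fat sample 1 matched the highest probiotic sample while the other two lay below all probiotic values, and the difference was 0.584 (SE 0.436). Leaving out high-fat sample 1 gave 1.12. The difference dropped to 0.306 when high-fat sample 3 was left out, to 0.337 for high-fat sample 2 and to 0.323 for probiotic sample 1.

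Of 18 listed targets of Nr1i2 and Nr1i3, 13 were tested, 6 with higher and 7 with lower values and a median of -0.0166, which ran from -0.0389 to 0.216 with single samples left out. Before adjustment 3 of the 13 had a limma p under 0.05, against 6.85% of all probe sets tested. All 3 were higher: the cytochrome P450 Cyp3a9 (0.603, SE 0.143), the heme synthesis enzyme Alas1 (1.35, SE 0.535) and Aldh1a1. Cyp3a9 had 13.80, 13.77 and 13.92 in probiotic and 13.41, 13.21 and 13.06 in high-fat samples, without overlap. Cyp3a23-3a1, another drug-metabolizing cytochrome P450, had a difference of 0.219 (SE 0.108), with no overlap. Members of the Cyp3a family are close in sequence, and signal may be shared between them. None of these passed after adjustment.

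For Nr3c1, the glucocorticoid receptor, the 2 probe sets had opposite signs. The bright one had 11.58, 11.56 and 12.09 in probiotic and 11.42, 10.85 and 11.61 in high-fat samples. High-fat sample 3 lay within the probiotic range, and the difference was 0.448 (SE 0.240), or 0.228 with high-fat sample 2 left out and 0.275 with probiotic sample 3 left out. The dimmer one, at percentile 58.5, had 7.28, 7.37 and 6.52 in probiotic and 8.03, 8.20 and 7.45 in high-fat samples, all probiotic values being lower. Its difference was -0.84 (SE 0.358) with an adjusted p of 0.726 in limma. The gap between the probe sets was 4.69 ± 0.765 in probiotic and 3.40 ± 0.753 in high-fat samples (SD, n = 3 each), and the exact two-sided permutation p of 0.1 is the smallest that 3 against 3 samples allow (0.65 after adjustment over 13 genes). Which probe set follows the transcript was not tested. The mineralocorticoid receptor Nr3c2 had a difference of 0.709 (SE 0.505), with high-fat sample 2 at 5.86 and the other high-fat samples at 7.62 and 7.72, and it was 0.107 without that sample.

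Of 16 listed targets of Nr3c1, 14 were tested, 11 with higher and 3 with lower values in the probiotic group and a median of 0.401. Before adjustment 3 of the 14 had a limma p under 0.05, all with higher values, against 6.85% of all probe sets tested. Tsc22d3, a glucocorticoid-induced leucine zipper, had 10.31, 12.28 and 11.82 against 10.51, 9.96 and 9.93. The insulin-like growth factor binding protein Igfbp1 had 12.04, 15.66 and 12.41 against 11.47, 12.01 and 11.19, and the clock gene Per1 had 5.997, 9.44 and 7.87 against 6.41, 5.39 and 6.34. The high-fat mean of Per1 (6.04) lay below the percentile 40 cut of 6.30, so it passed the filter through its probiotic values. Probiotic sample 2 was the highest array for each of the 3 genes. In that sample immediate early genes, which answer stimulation within minutes, had a summed intensity of 96211, against 7960 to 13699 in the other 5. In a fit that included the Actb gap, the median of the Nr3c1 targets was -0.234. Dropping probiotic sample 2 left a median of 0.0255 and dropping high-fat sample 1 left 0.125. It became 0.609 when high-fat sample 2 was dropped and 0.738 when probiotic sample 1 was.

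Orphan receptors, which were named before any ligand was known, divided by direction. Of 11 on the array 9 were tested, 5 with higher and 4 with lower values. Nr2f2, which is also a marker of venous endothelium, had 11.31, 10.51 and 10.64 in probiotic and 11.38, 10.57 and 11.20 in high-fat samples, ranges that nearly coincide, with a difference of -0.23 (SE 0.278) and 0.0696 and -0.047 on its other tested probe sets. With single samples left out it ran from -0.473 to -0.0632. Of 9 endothelial markers 5 had higher and 4 lower values, and they had a summed intensity of 7660 to 14241 in probiotic and 9752 to 10615 in high-fat samples, and their part in the result was not tested. Nr2f6 had 10.42, 10.33 and 10.49 against 10.72, 9.68 and 10.13, so the probiotic samples lay inside the high-fat range. Its difference was 0.236 (SE 0.264), while its other tested probe sets gave -0.659 and -0.782.

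Receptors tied to mitochondrial metabolism and the clock had higher means in the probiotic group for Esrrg and Rora and a lower one for Esrra. Esrrg had 9.12, 9.10 and 10.25 in probiotic and 9.09, 8.50 and 9.57 in high-fat samples, sample 3 being the highest in each group. Its difference was 0.436 (SE 0.374), with 0.524 on its other probe set. Dropping probiotic sample 3 left a difference of 0.0576, dropping high-fat sample 2 left 0.161 and dropping high-fat sample 3 left 0.691. Rora, an activator of the clock gene Bmal1, had 8.95, 9.998 and 8.97 against 9.38, 8.24 and 8.57, a difference of 0.573 (SE 0.375) with overlapping groups. It became 0.222 when probiotic sample 2 was left out, 0.331 when high-fat sample 2 was, and 0.903 when high-fat sample 1 was. An untested Rora probe set, at percentile 32.7, had a raw difference of -1.37. Esrra had -0.226 (SE 0.318).

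The remaining orphan receptors were of moderate or low signal. Nr2c1 had 8.18, 8.62 and 8.39 in probiotic and 7.96, 8.08 and 8.03 in high-fat samples, without overlap, a difference of 0.375 (SE 0.243). Nr4a2, a receptor induced as an immediate early gene, had 7.47, 8.71 and 8.15 against 7.59, 7.49 and 7.38, a difference of 0.625 (SE 0.343), which became 0.327 when probiotic sample 2 was left out and 0.942 when probiotic sample 1 was. Its relative Nr4a3 had -1.09 (SE 0.499) on its brightest probe set and 0.247 and 0.315 on the others. One of those had 8.60 in probiotic sample 2 and 4.46 in probiotic sample 1. Nr0b1, a repressor without the usual DNA-binding domain, had 6.73, 4.74 and 6.37 against 7.18, 7.62 and 6.61, a difference of -1.19 (SE 0.593). Probiotic sample 2 was the low value, and without it the difference was -0.590. The probiotic means of Nr0b1 (5.95) and of the brightest Nr4a3 probe set (6.15) lay below the percentile 40 cut, a log2 signal of 6.30. Both passed the filter through their high-fat values.

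Among coregulators, 4 of 6 tested had higher and 2 lower values. Ncoa1, a steroid receptor coactivator, had 10.06, 10.34 and 10.15 in probiotic and 9.77, 9.48 and 10.18 in high-fat samples, where sample 3 reached the probiotic range. The difference was 0.373 (SE 0.229), or 0.206 without high-fat sample 2, and -0.0504 on another bright probe set. Ncor1, the corepressor that recruits the deacetylase Hdac3, had 10.09, 10.37 and 10.46 against 10.63, 9.84 and 10.19, with interleaved groups. Its difference was 0.0895 (95% interval -0.451 to 0.63), and its other probe sets gave 0.46 and -0.0753.

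Med1, the Mediator subunit that contacts ligand-bound receptors, had 9.002, 9.53 and 9.10 in probiotic and 9.44, 9.84 and 9.70 in high-fat samples. Only probiotic sample 2 reached into the high-fat range, and the difference was -0.45 (SE 0.232). A probe set of almost the same brightness gave 0.0618. Nrip1, a repressor of metabolic genes, had 9.23, 11.11 and 8.35 in probiotic and 9.34, 8.90 and 9.14 in high-fat samples. Probiotic sample 2 was far above the rest. The difference was 0.437 (SE 0.572), and -0.332 without that sample. Ncoa3 had -0.138 (SE 0.790) and -0.474 on its 2 tested probe sets. The probiotic mean of the second (6.19) lay below the percentile 40 cut of 6.30.

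Probe sets of the same gene often differed in sign. Of the 13 genes with more than 1 tested probe set, 5 had a single sign and 8 had both. Thra (0.98 and 0.818), Esrrg (0.436 and 0.524), Nr4a2, Ncoa3 and Rxrg were of 1 sign. The samples behind a shared sign could differ: the lowest high-fat value of Thra was in sample 2 on one probe set (4.78) and in sample 3 on the other (5.12), and the gap between them ran from -1.41 to 2.88 over the high-fat samples. Thrb, Nr3c1, Nr2f2, Nr2f6, Nr4a3, Ncoa1, Med1 and Ncor1 were of both. The gap between the brightest and the next probe set separated the groups without overlap for 2 of the 13, Nr3c1 and Nr2f6. For Nr2f6 it was 2.70 ± 0.519 in probiotic and 1.81 ± 0.468 in high-fat samples (SD, n = 3 each). Its exact permutation p was 0.1, or 0.65 after adjustment over the 13. The share of such separations over other genes of the array was not computed, so no background stands beside this count.

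A second list held nuclear receptors outside the 36, and 10 of its 19 genes were tested, 8 with higher and 2 with lower values and a median of 0.244. Nr0b2, the bile acid-induced repressor SHP, had 1.92 (SE 0.568) and the bile acid receptor Nr1h4 0.501 (SE 0.221). Both had an unadjusted limma p under 0.05, against 6.85% of all probe sets tested. Hnf4a, a receptor that maintains hepatocyte identity, had 0.278 and the oxysterol receptor Nr1h2 -0.452. Groups did not overlap for Nr0b2, Hnf4a and Nr1h2 of the 10 genes, against 12.7% of all probe sets tested. Nr4a1, an immediate early receptor, had 1.55 (SE 0.794). Its high-fat mean of 5.67 lay below the percentile 40 cut of 6.30, so it passed the filter through its probiotic values. Of 29 further coregulators 25 were tested, 16 with higher and 9 with lower values and a median of 0.0171. The coactivator Ncoa6 had 0.691 (SE 0.256) and the acetyltransferase Kat2a 1.04 (SE 0.396). The lists of nuclear receptors and of coregulators had 0 genes past the adjusted test, and so did the target lists.

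**Figure D4:**
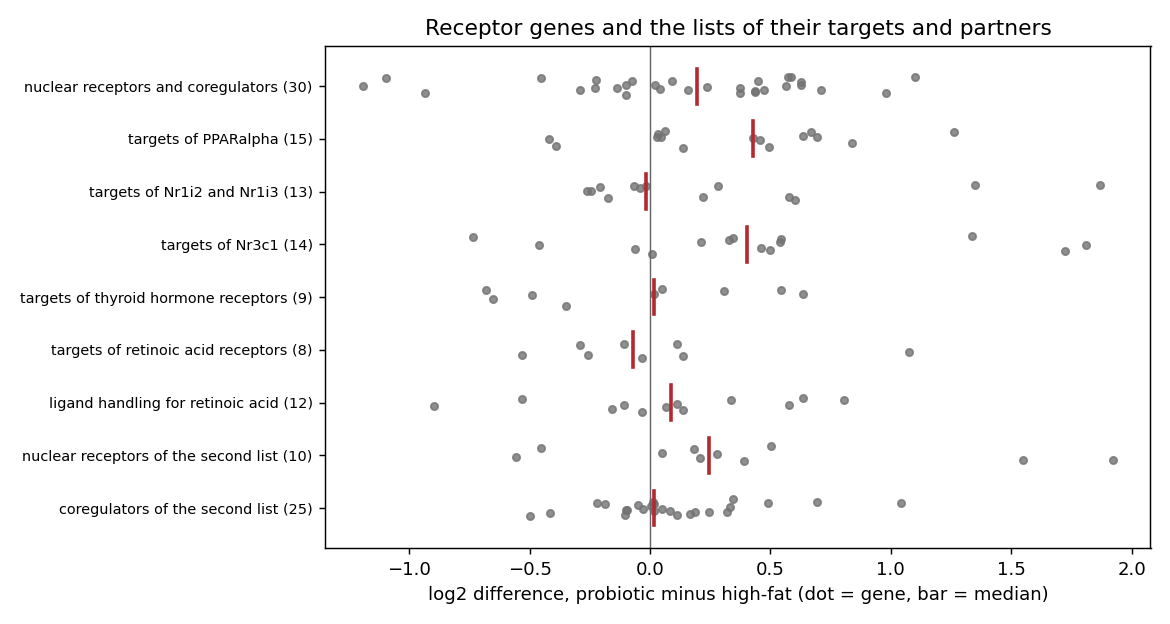
Log2 difference between probiotic and high-fat samples for the 30 tested nuclear receptors and coregulators and for the genes of 8 other lists, with the number tested in brackets; each dot is a gene by its brightest probe set and the bar is the median. The medians of the PPARalpha and Nr3c1 targets are 0.428 and 0.401, and the other lists lie between -0.0694 and 0.244; without probiotic sample 2 those 2 medians are 0.0754 and 0.0255.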

How the data were processed

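Liver RNA of 6 samples (3 per group, by their titles) was measured on 1-colour Affymetrix arrays; biotin-labelled cRNA came from 8 ug of total RNA, per the labels' protocols. The authors deposited a linear intensity per probe set and array, with a mean of 500 on every array once 2% of probe sets are trimmed at each end; the software is not given in the sources used here. Median intensity was 90.05 to 146.9, and the small number of arrays limits precision. Of 31099 probe sets, 57 were controls. Symbols came from the platform annotation (20826 probe sets with 1 symbol, 20758 matched to RefSeq by gene identifier, 0 changed). Intensities were turned into log2(intensity + 16) and quantile normalized. Probe sets at or above percentile 40 of the mean (18625) were tested.

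Probiotic and high-fat samples were tested against each other in limma 3.58.1 (R 4.3.3; eBayes with an intensity trend, two-sided, Benjamini-Hochberg over all probe sets tested, threshold 0.05). Differences are probiotic minus high-fat and understate changes of dim probe sets. The scripts were tested on simulated data. The genes, lists and alternatives were chosen with earlier results of these data known. All 36 genes were named; sample values were given for those that were bright or had an unadjusted p under 0.05, and for others chosen after their values were seen; of other lists up to 4 genes of smallest p were named, with others chosen after their values were seen. Figures were drawn with matplotlib 3.10.9. The gap test between probe sets was added after seeing the data. Protein sequence features were planned and not run here.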

Additional observations from a re-analysis of the deposited data

How the results depend on the processing

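Under each of 13 other settings 0 of the probe sets of nuclear receptors and coregulators passed the adjusted test. Of 30 genes, 13 kept their sign under every setting, Rxra and Rxrb among them, and 17 did not. Genes at an unadjusted limma p under 0.05 numbered 2 (6.67%, against 6.85% of all probe sets tested). With the replicate block they numbered 5, without both second samples 1, with the Actb gap in the fit 0, and with single samples left out 2 to 5. Shares over all probe sets under these settings are not given here, so these counts have no background beside them. The Actb gap did not overlap between groups, so the fit with it separates group and gap poorly. Whether samples of the same number were paired was not tested. Their deviations correlated at 0.144, 0.027 and 0.0774, and those of samples of different numbers at -0.141 to 0.067. The cause of the changes below was not tested.

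With single samples left out, sign turned within the ranges -0.361 to 0.141 for Ppara, -0.193 to 0.495 for Pparg, -0.139 to 0.193 for Rxrg, -0.143 to 0.163 for Rara, -0.516 to 0.123 for Rarb, -0.179 to 0.0436 for Rarg, -0.303 to 0.106 for Nr1i2, -0.00905 to 0.51 for Nr2f6, -1.02 to 0.461 for Ncoa3, -0.099 to 0.294 for Ncor1 and -0.332 to 1.04 for Nrip1. Without both second samples Ppara had 0.0973, Rara -0.0544, Thra -0.0909, Nr1i2 0.198, Esrra 0.0619, Rora -0.0216, Ncor1 -0.128 and Nrip1 -0.455. With the Actb gap in the fit Ppara had 0.309, Ppard -0.0224, Thra -0.345, Nr1i2 0.381, Esrra 0.118, Rora -0.296, Nr4a2 -0.0181, Nr0b1 0.205, Ncoa3 0.0936, Ncor1 -0.22 and Nrip1 -0.913. Without normalization between arrays Rara had -0.0316. Other tested probe sets gave the opposite sign for Thrb (-0.0941, -0.403), Nr3c1 (-0.84), Nr2f2 (0.0696), Nr2f6 (-0.659, -0.782), Nr4a3 (0.247, 0.315), Ncoa1 (-0.0504), Med1 (0.0618) and Ncor1 (-0.0753).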
